A study of Mus musculus with 31 samples.

Results

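The genes described here are 30 genes of fatty acid oxidation, followed in the RNA sequencing libraries of neural stem cells and their offspring after midazolam. They were taken by gene name, and all 30 were found among the 24062 gene names of the mouse libraries and the 24322 gene names of the culture libraries. They cover fatty acid activation (5 genes), the carnitine shuttle (5), the acyl-CoA dehydrogenases (4), electron transfer (3), the hydratase, dehydrogenase and thiolase steps (5), auxiliary enzymes (3), peroxisomal enzymes (3), and a regulator and a thioesterase (2). None of the 30 is an enzyme of ketone body metabolism, so ketone body metabolism was followed in a separate list of 5 genes, all of ketone body use or of related dehydrogenases.

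The study has 21 RNA libraries, 3 per group. Neural stem and progenitor cells were sorted by EGFP from the dentate gyrus of Nestin-EGFP C57BL/6 mice, in which a Nestin transgene drives the fluorescent protein, so the gate also takes any other cell in which EGFP is present. MDZ P10 mice had received midazolam (MDZ), a benzodiazepine sedative, at 10 mg/kg by intraperitoneal injection on postnatal days 7, 8 and 9, and Control P10 mice had received distilled water; both were collected on postnatal day 10 (P10), 1 mouse per library. RUN MDZ 8w mice had the same midazolam and a running wheel, MDZ 8w mice the same midazolam and no wheel, and Control 8w mice water and no wheel stated; they were collected at 8 weeks, with 3 to 5 mice pooled per library. No control mice with a wheel are among the samples. Egr1 culture cells carried lentiviruses for the transactivator M2rtTA and for Flag-tagged Egr1, a zinc finger transcription factor induced early by stimulation, and Control culture cells carried the M2rtTA virus alone. Both came from embryonic day 11 mouse cortex, had been passaged more than 20 times and grew with basic fibroblast growth factor and epidermal growth factor. Nothing states that the culture libraries came from separate cultures, so p-values there measure the spread between libraries that may be technical repeats.

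Fatty acids enter oxidation as acyl-CoA, made by acyl-CoA synthetases. Long chains pass into mitochondria as carnitine esters and are then shortened by repeated rounds of dehydrogenation, hydration, a second dehydrogenation and thiolytic cleavage, with the first electrons handed on by electron transfer flavoprotein. The acetyl-CoA formed can be turned into ketone bodies, which other cells burn. In adult neural stem cells and astrocytes this pathway is known as a source of energy, and its activity has been tied to the balance of quiescence and proliferation of neural stem cells, while most neurons use it little.

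Levels are given in FPKM (fragments scaled to transcript length and library size) at P10 and in TPM (transcripts scaled likewise to a fixed library total) at 8 weeks and in culture; both are scaled by transcript length, but they are not compared with each other. Log2 changes were taken on log2(value + 1), which understates the change of low genes, and tested with limma over every gene with a mean of at least 1; a gene passed at a Benjamini-Hochberg adjusted p below 0.05. Of the genes detected in Control 8w replicates 2 and 3, 97.43% were detected in both, against 78.38% and 77.81% for either one with replicate 1, and they differed by less than any other pair at 8 weeks. They may be repeat deposits of 1 library, so their mean counted as 1 sample and Control 8w had n = 2. The 12 radial glia-like stem cell markers summed to 1330 to 1488 FPKM in MDZ P10 and 1395 to 1828 FPKM in Control P10. In culture they summed to 4814 to 5039 TPM in Egr1 culture and 5366 to 5802 TPM in Control culture. These sums alone cannot check the label of neural stem cells. At P10 the 14 astrocyte markers summed to 3080 to 3191 FPKM in MDZ P10 and 2818 to 3395 in Control P10. The 10 oligodendrocyte markers summed to 1235 to 1628 FPKM in MDZ P10 and 1248 to 2793 in Control P10, highest in Control P10 replicate 2. The number of genes above 0 was 11163 to 11397 in Control 8w libraries, 15382 to 16709 in MDZ 8w, 15568 to 15906 in RUN MDZ 8w, 15537 to 15998 in culture and 17623 to 18470 at P10. Read counts were not used here, so the depth is unknown, no counting error can be given, and a gene at 0 is only listed at 0.

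At P10 the highest members were 3 acyl-CoA synthetases. Acsbg1, a synthetase prominent in brain, had 109, 111 and 108 FPKM in MDZ P10 and 112, 88.9 and 106 FPKM in Control P10, followed by Acsl3 at 74.4, 81.2 and 73.5 FPKM in MDZ P10 and 67.4, 82.9 and 62.5 FPKM in Control P10. Acsbg1 and Acsl3 did not overlap in level within either group, whereas Acsl3 and the third, Acsl6, overlapped in Control P10. Ppara, which encodes the nuclear receptor that drives fatty acid oxidation genes in liver, was the lowest, with 1.7, 1.43 and 1.64 FPKM in MDZ P10 and 2.01, 1.44 and 1.71 FPKM in Control P10. The order at 8 weeks and in culture differed from this one. At 8 weeks Acsl3 led in MDZ 8w and RUN MDZ 8w, with Cpt1c, a brain carnitine palmitoyltransferase homologue, among the top 3 of every group. In culture Etfb, Acadl and Acsbg1 were within the top 5 of both groups, while Acsl6 was below 4 TPM in every library. Replicates lay closest in culture, with a median coefficient of variation over the members of 5.5% in Egr1 culture and 4.31% in Control culture. It was 5.72% in MDZ P10 and 7.78% in Control P10, and 20.1% in RUN MDZ 8w, 16.7% in MDZ 8w and 27.7% in Control 8w. The Control 8w value covers the 27 members not at 0 in all of its libraries, and counts replicates 2 and 3 separately.

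Promoter sequences are shown for a pair of genes that share one promoter region, for the member with an Egr motif, for the member that fell most in Egr1 culture and for the most abundant member there. Windows from RefSeq (build GRCm38.p6) were found for 26 of the 30 members, 29 windows in all; Acaa2, Decr1, Hsd17b4 and Crat have none in the table. Hadha and Hadhb encode both subunits of the mitochondrial trifunctional protein and start back to back on chromosome 5. The 272 bases between their starts, chr5:30154981-30155252 on the plus strand, hold none of the motifs searched. Ppara (chr15:85735526-85735775, plus strand) is the only member with an Egr motif in the 250 bases before a start. Its window was chosen because it holds the motif, here GCGAGGGCG, and lies inside the gene, whose first base is 85734910. Acsbg1 (chr9:54661886-54662135, minus strand) fell most in Egr1 culture, and Etfb (chr7:43443822-43444071, plus strand) rose there; each has 2 CCAAT boxes. Capitals mark the Egr motif in Ppara and the CCAAT letters, or their reverse complement ATTGG, in the Acsbg1 and Etfb windows; positions run 5′ to 3′ on the strand given.
Hadha-Hadhb: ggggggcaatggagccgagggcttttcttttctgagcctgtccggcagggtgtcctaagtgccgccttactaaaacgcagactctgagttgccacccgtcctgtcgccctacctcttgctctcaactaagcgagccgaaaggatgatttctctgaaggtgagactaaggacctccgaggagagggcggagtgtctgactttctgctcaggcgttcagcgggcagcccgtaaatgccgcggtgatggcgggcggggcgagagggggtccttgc
Ppara: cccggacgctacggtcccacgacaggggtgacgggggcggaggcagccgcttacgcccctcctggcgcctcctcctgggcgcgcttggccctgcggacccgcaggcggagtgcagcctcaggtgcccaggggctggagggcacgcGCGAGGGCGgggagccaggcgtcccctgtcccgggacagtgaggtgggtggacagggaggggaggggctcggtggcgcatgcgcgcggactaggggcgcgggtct
Acsbg1: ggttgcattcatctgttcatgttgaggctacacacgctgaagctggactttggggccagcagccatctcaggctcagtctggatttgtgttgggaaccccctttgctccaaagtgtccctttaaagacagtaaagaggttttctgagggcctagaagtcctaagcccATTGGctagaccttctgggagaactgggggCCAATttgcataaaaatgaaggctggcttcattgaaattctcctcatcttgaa
Etfb: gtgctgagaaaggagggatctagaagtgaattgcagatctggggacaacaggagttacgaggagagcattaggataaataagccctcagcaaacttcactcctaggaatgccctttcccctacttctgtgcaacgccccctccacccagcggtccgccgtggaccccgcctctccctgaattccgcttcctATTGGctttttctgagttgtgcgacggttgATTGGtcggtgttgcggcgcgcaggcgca

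The search used both strands of the 250 bases before each start. The Egr motif GCGNGGGCG was in 1 of the 29 member windows, against 4.7% of 32851 windows in the table. The GC box GGGGCGGGG, whose letters can overlap an Egr motif, was in 9 member windows against 10.4% of all, and CCAAT was in 16 member windows, of 15 members, against 33.8% of all. The nuclear receptor core site AGGTCA was in 6 member windows against 14% of all. Its direct repeat with 1 base between the copies, known as DR1, was in 0 member windows against 0.0335% of all. The median GC content was 58.8% in member windows and 52.4% in all windows.

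The first comparison, MDZ P10 against Control P10, shows what the cells looked like 1 day after the last dose. None of the 30 members passed the test, higher or lower, against 0.00774% of the 12914 genes tested (1 gene, lower). An unadjusted limma p below 0.05 was reached by 3 members, or 10%, against 12.2% of all genes; they are Cpt1c, Etfdh and Acsl6, which are also the 3 members whose groups did not overlap, against 18.8% of all genes. Cpt1c was the 1 higher member (12.2% of genes were higher without overlap) and Etfdh and Acsl6 the 2 lower ones (6.61% of genes). The median log2 change was 0.00 over the members and 0.01 over all genes, and 14 members had a positive and 16 a negative change. The changes ran from −0.23 (Acsl6) to 0.20 (Acot2).

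Acsl6, a synthetase of brain that handles docosahexaenoic acid, had 53.7, 56.6 and 55.9 FPKM in MDZ P10 and 71.2, 62.4 and 61.7 FPKM in Control P10. All 3 MDZ P10 libraries lay below all Control P10 libraries, with a log2 change of −0.23 ± 0.07 (SE) and a limma adjusted p of 0.28. Acsl1, the main synthetase of liver and heart, had 8.5, 8.47 and 6.7 FPKM in MDZ P10 and 7.71, 12.1 and 8.21 FPKM in Control P10. Its groups overlapped and Control P10 replicate 2 was the highest library (−0.20 ± 0.16, limma adjusted p = 0.63). Acsbg1 changed by 0.10 ± 0.09 (limma adjusted p = 0.66), with its lowest value in Control P10 replicate 2.

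Cpt1c, the brain homologue, is only listed here with the carnitine shuttle. It had 33.6, 30.8 and 31.6 FPKM in MDZ P10 and 27.8, 29.2 and 27.5 FPKM in Control P10. The 3 MDZ P10 values were the 3 highest, a log2 change of 0.18 ± 0.05 with a limma adjusted p of 0.29. Cpt1a, which makes the carnitine ester at the outer mitochondrial membrane and sets the rate of long-chain oxidation, had 31.3, 33.4 and 32.7 FPKM in MDZ P10 and 34.9, 28.02 and 35.8 FPKM in Control P10, with overlapping groups (−0.01 ± 0.09, limma adjusted p = 0.97). Cpt2, which turns the ester back into acyl-CoA on the matrix side, had 8.07, 7.85 and 7.04 FPKM in MDZ P10 and 7.46, 7.38 and 7.68 FPKM in Control P10 (0.02 ± 0.06, limma adjusted p = 0.92).

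Among the dehydrogenases, Acadl (long chain) had 35.8, 38.1 and 36.6 FPKM in MDZ P10 and 39.3, 32.6 and 41.6 FPKM in Control P10, a log2 change of −0.03 ± 0.09 (limma adjusted p = 0.91). Acadm (medium chain) had 20.3, 20.3 and 19.1 FPKM in MDZ P10 and 20.4, 19.1 and 20.8 FPKM in Control P10 (−0.02 ± 0.05, limma adjusted p = 0.94). Acadvl (very long chain) had 31.3, 30.6 and 30.97 FPKM in MDZ P10 and 32.9, 30.6 and 32.7 FPKM in Control P10 (−0.05 ± 0.05, limma adjusted p = 0.72). These 3 enzymes catalyse the first step of each round, and the groups of all 3 overlapped.

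Etfdh, which passes electrons from the flavoprotein to ubiquinone, had 18.8, 20.9 and 18.99 FPKM in MDZ P10 and 21.6, 21.2 and 21.6 FPKM in Control P10, all 3 MDZ P10 libraries being lower (−0.13 ± 0.06, limma adjusted p = 0.41). Hadha had 35.1, 36.4 and 34.2 FPKM in MDZ P10 and 36.4, 36.5 and 37.6 FPKM in Control P10 (−0.06 ± 0.05, limma adjusted p = 0.63). Its partner Hadhb had 20.9, 21.8 and 19.9 FPKM in MDZ P10 and 20.1, 20.2 and 21.2 FPKM in Control P10 (0.03 ± 0.05, limma adjusted p = 0.88). The groups of both subunits overlapped. Acot2, a mitochondrial thioesterase that frees fatty acids from CoA and has a near-identical neighbour, Acot1, with which reads may be shared, had 14.5, 15.6 and 13.00 FPKM in MDZ P10 and 12.4, 10.8 and 14.2 FPKM in Control P10 (0.20 ± 0.10, limma adjusted p = 0.47). The members not named above lay between −0.11 (Etfa) and 0.13 (Slc25a20 and Acsl5), with limma adjusted p of 0.57 or more. For Ppara the change was −0.07 ± 0.10 with a limma adjusted p of 0.83.

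**Figure D1:**
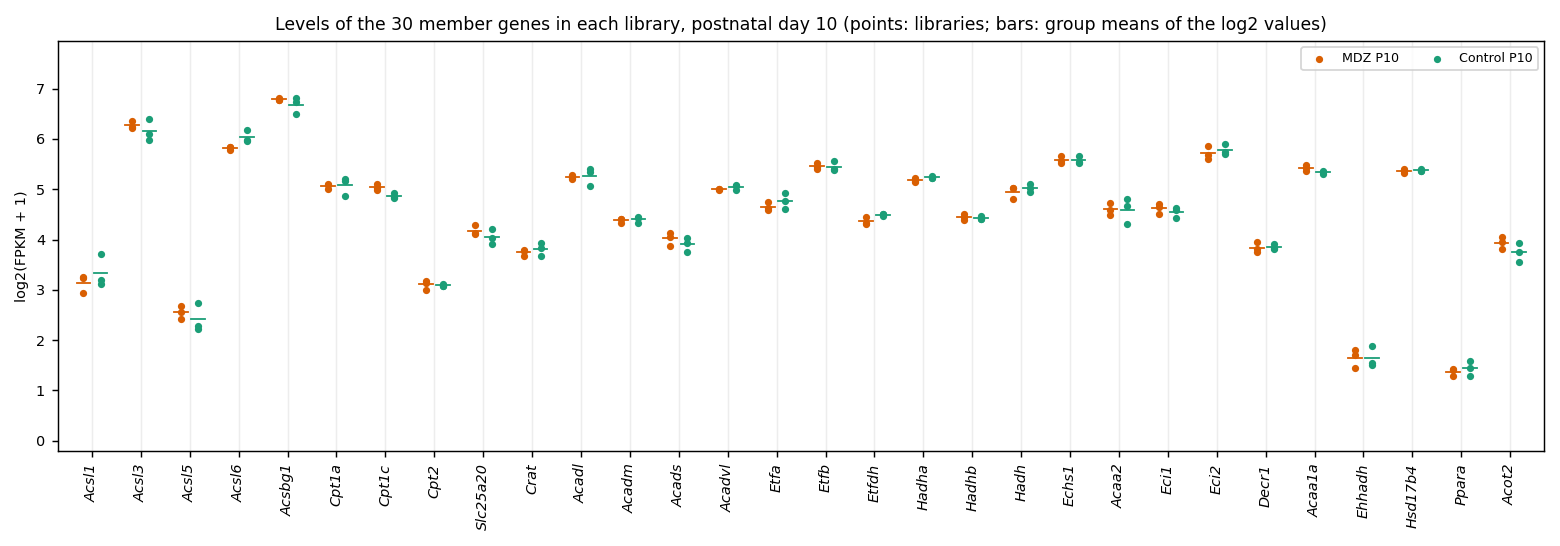
Levels of the 30 members at P10 as log2(FPKM + 1) on the y axis, ordered by role along the x axis, with MDZ P10 left of Control P10. Points are libraries and bars are group means of the log2 values. The points of the groups overlap for all members but Cpt1c, Etfdh and Acsl6.

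At 8 weeks the sedentary mice differed in 1 member. Decr1, which reduces double bonds so that unsaturated fatty acids can be oxidised, was the single member higher in MDZ 8w, 3.33% of the 30 against 4.68% of 15264 genes. No member was lower, against 0.452% of genes; in either direction 5.13% of genes passed. The member median of 0.37 was close to the median of all genes, 0.36, and 24 of 30 members had a positive change, as did 66.1% of genes. An unadjusted limma p below 0.05 was reached by 9 members (30%), against 22.8% of genes. The groups did not overlap in 11 members (36.7%), against 36.3% of all genes: 9 were higher (30%, against 26.2% of genes) and 2 lower (6.67%, against 10.1%). The share called thus lay below that of all genes and the share without overlap close to it. Under quantile normalization the median of all genes moved to −0.06 and that of the members to 0.30. In sorted populations, a change in the number of cells of a type and a change in RNA per cell cannot be told apart.

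Marker genes of other cell types moved with the groups at 8 weeks. The summed level of 14 astrocyte markers was 4658 to 5533 TPM in RUN MDZ 8w, 3606 to 3946 in MDZ 8w and 1994 to 2562 in Control 8w, with 3 of 14 higher in MDZ 8w than in Control 8w. The 14 neuroblast and granule neuron markers summed to 4237 to 4790 TPM in RUN MDZ 8w, 4298 to 6167 in MDZ 8w and 7144 to 7689 in Control 8w, and 3 of 14 were lower in MDZ 8w than in Control 8w. For 10 oligodendrocyte markers the sums were 2693 to 4077 TPM in RUN MDZ 8w, 219.4 to 1074 in MDZ 8w and 301.2 to 485.1 in Control 8w. For 13 endothelial markers they were 1137 to 1461 TPM in RUN MDZ 8w, 395.3 to 521.7 in MDZ 8w and 492.1 to 735.7 in Control 8w. Against Control 8w, RUN MDZ 8w was higher in 10 of the 14 astrocyte, 9 of the 10 oligodendrocyte and 8 of the 13 endothelial markers. Of all genes 9.41% were higher in that comparison. For MDZ 8w against Control 8w, 4.68% of all genes were higher and 0.452% lower. Markers of radial glia-like stem cells, 12 genes, summed to 2198 to 2629 TPM in RUN MDZ 8w, 2517 to 3969 in MDZ 8w and 1564 to 1698 in Control 8w. Control 8w libraries had 4 members each at 0, and 3907 to 4162 of the 15264 tested genes; RUN MDZ 8w and MDZ 8w libraries had no member and 462 to 1156 genes at 0. The part of these differences in the results for the members was not tested.

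Decr1 had 49.9, 29.3 and 35.6 TPM in RUN MDZ 8w, 46.7, 28.1 and 28.6 TPM in MDZ 8w and was listed at 0 in all 3 Control 8w libraries. The limma adjusted p was 0.0017 for MDZ 8w against Control 8w and 0.0015 for RUN MDZ 8w against Control 8w; no fold is given against a group at 0. With library quality weights these became 0.11 and 0.10, and RUN MDZ 8w against Control 8w became 0.085 in a fit of those groups alone. Decr1 met the filter on means through the midazolam groups alone, and a gene at 0 throughout Control 8w can only come out higher. Its equal zeros also add no spread to the fit, so such p-values are no support beyond the listed values. The same limit holds for Ehhadh, Ppara, Bdh2, Acad10, Ppargc1a and Pdk4 below. The other auxiliary enzymes, the isomerases Eci1 and Eci2, did not pass, and Eci1 ranged from 142 TPM in Control 8w replicate 1 to 33.9 and 24.9 TPM in replicates 2 and 3.

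Ehhadh, the peroxisomal bifunctional enzyme, had 9.08, 1.63 and 9.19 TPM in RUN MDZ 8w and 5.39, 3.67 and 2.27 TPM in MDZ 8w, and Ppara had 2.07, 4.43 and 2.999 TPM in RUN MDZ 8w and 3.37, 2.6 and 1.87 TPM in MDZ 8w. Both were listed at 0 in all Control 8w libraries, so the limit stated for Decr1 holds for them too. The limma adjusted p for MDZ 8w against Control 8w was 0.14 for Ehhadh and 0.11 for Ppara, and for RUN MDZ 8w against Control 8w 0.0598 and 0.0558. Neither passed in those comparisons, and neither passed between RUN MDZ 8w and MDZ 8w (limma adjusted p = 0.93 and 0.99).

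Acot2 had 40.7, 26.4 and 31.6 TPM in RUN MDZ 8w, 36.5, 27.3 and 22.2 TPM in MDZ 8w and 9.47, 9.26 and 12.2 TPM in Control 8w. Every library of both midazolam groups lay above every Control 8w library. It was higher in RUN MDZ 8w than in Control 8w (1.59 ± 0.38, limma adjusted p = 0.038), and for MDZ 8w against Control 8w the change of 1.39 ± 0.38 had a limma adjusted p of 0.085. The RUN MDZ 8w call was lost without RUN MDZ 8w replicate 1 (limma adjusted p = 0.097) or replicate 3 (0.085), without any of the MDZ 8w replicates (0.074 to 0.083), under quantile normalization (0.23), with library quality weights (0.56) and in a fit of those groups alone (0.20).

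Hadh, the 3-hydroxyacyl-CoA dehydrogenase of medium and short chains, had 75.5, 55.2 and 67.9 TPM in RUN MDZ 8w, 71.3, 102 and 60.5 TPM in MDZ 8w and 9.66, 36.7 and 29.3 TPM in Control 8w. The Control 8w libraries were the 3 lowest, yet the limma adjusted p stayed at 0.0565 for MDZ 8w (2.02 ± 0.49) and 0.0518 for RUN MDZ 8w (1.81 ± 0.49). Acaa2, a mitochondrial thiolase, had 29.2, 21.4 and 44.05 TPM in RUN MDZ 8w, 37.5, 53.7 and 25.6 TPM in MDZ 8w and 20.97, 0 and 0 TPM in Control 8w. Against Control 8w the change in MDZ 8w was 3.03 ± 1.13, with a limma adjusted p of 0.17. Echs1, the enoyl-CoA hydratase, had its highest values in Control 8w, with 121, 139.9 and 135 TPM in RUN MDZ 8w, 160.4, 158 and 143 TPM in MDZ 8w and 187, 207 and 230.2 TPM in Control 8w. Its 3 groups did not overlap, and the limma adjusted p was 0.0587 for RUN MDZ 8w against Control 8w (−0.61 ± 0.17) and 0.22 for MDZ 8w against Control 8w (−0.39 ± 0.17).

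The trifunctional subunits stayed closer together. Hadha had 136, 143 and 111 TPM in RUN MDZ 8w, 109, 119 and 84.6 TPM in MDZ 8w and 109, 102 and 98.2 TPM in Control 8w. Hadhb had 84.9, 71.8 and 83.5 TPM in RUN MDZ 8w, 69.5, 77.5 and 61.1 TPM in MDZ 8w and 44.8, 85.6 and 78.99 TPM in Control 8w. For MDZ 8w against Control 8w the changes were −0.02 ± 0.22 for Hadha and 0.18 ± 0.29 for Hadhb, and for RUN MDZ 8w against MDZ 8w they were 0.33 ± 0.20 and 0.21 ± 0.26, all with a limma adjusted p of 0.70 or more. For RUN MDZ 8w against Control 8w they were 0.31 ± 0.22 and 0.39 ± 0.29 (limma adjusted p = 0.38 and 0.4).

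In electron transfer, Etfb, the beta subunit of the flavoprotein, had 157, 143 and 90.8 TPM in RUN MDZ 8w, 167, 169 and 150.2 TPM in MDZ 8w and 86.7, 11.3 and 0.669 TPM in Control 8w. The Control 8w libraries were again the lowest but spread widely, and the change of 2.72 ± 0.88 in MDZ 8w had a limma adjusted p of 0.13. Etfa, the alpha subunit, had 88.9, 109 and 63.4 TPM in RUN MDZ 8w, 88.4, 118 and 78.4 TPM in MDZ 8w and 62.03, 97.9 and 88.4 TPM in Control 8w, with overlapping groups and a change of 0.30 ± 0.32 in MDZ 8w (limma adjusted p = 0.61).

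The carnitine shuttle showed no call. Cpt1a had 66.9, 63.8 and 59.98 TPM in RUN MDZ 8w, 40.02, 47.03 and 34.7 TPM in MDZ 8w and 20.01, 59.3 and 61.2 TPM in Control 8w. Its RUN MDZ 8w libraries lay above all MDZ 8w libraries, a change of 0.64 ± 0.39 with a limma adjusted p of 0.7, while Control 8w held both lower and similar values. Cpt1c had 153, 140.0 and 152 TPM in RUN MDZ 8w, 169, 126 and 177 TPM in MDZ 8w and 209.5, 154 and 163 TPM in Control 8w (−0.23 ± 0.22 for MDZ 8w against Control 8w, limma adjusted p = 0.56). Cpt2 had 30.6, 32.3 and 22.1 TPM in RUN MDZ 8w, 21.9, 17.7 and 16.2 TPM in MDZ 8w and 0, 47.2 and 53.3 TPM in Control 8w. Its change in MDZ 8w was 1.44 ± 1.37 (limma adjusted p = 0.56). Without Control 8w replicate 1, a fit that leaves Control 8w with 1 sample, it was −1.40, so 1 library decided its direction.

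Among the dehydrogenases, Acads (short chain) had 40.2, 49.1 and 31.2 TPM in RUN MDZ 8w, 71.04, 75.4 and 63.6 TPM in MDZ 8w and 48.96, 60.8 and 62.4 TPM in Control 8w. RUN MDZ 8w lay below MDZ 8w in all libraries (−0.81 ± 0.25, limma adjusted p = 0.3, or 0.0483 with library quality weights). Acadvl had 105, 102 and 120.0 TPM in RUN MDZ 8w, 121, 93.2 and 112 TPM in MDZ 8w and 95.7, 59.6 and 52.7 TPM in Control 8w (0.55 ± 0.27 for MDZ 8w against Control 8w, limma adjusted p = 0.26). Acadl had 91.5, 79.7 and 77.99 TPM in RUN MDZ 8w, 86.6, 158 and 44.5 TPM in MDZ 8w and 62.5, 52.2 and 33.7 TPM in Control 8w (0.70 ± 0.47, limma adjusted p = 0.41). Acadl had the widest spread within MDZ 8w of any member, from 44.5 to 158 TPM. Acadm was the member with the most negative change in MDZ 8w, with 84.5, 48.96 and 90.3 TPM in RUN MDZ 8w, 70.5, 52.9 and 62.97 TPM in MDZ 8w and 81.3, 85.2 and 89.3 TPM in Control 8w (−0.44 ± 0.31, limma adjusted p = 0.42).

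Of the synthetases, Acsl6 had 123, 80.8 and 109.7 TPM in RUN MDZ 8w, 120.2, 107 and 112 TPM in MDZ 8w and 70.4, 55.7 and 54.01 TPM in Control 8w. All midazolam libraries lay above all Control 8w libraries, with changes of 0.85 ± 0.24 in MDZ 8w (limma adjusted p = 0.092) and 0.72 ± 0.24 in RUN MDZ 8w (limma adjusted p = 0.1). Both passed with Control 8w replicates 2 and 3 kept apart (limma adjusted p = 0.023 and 0.029), which counts possible repeat deposits as separate samples. They also passed without Control 8w replicate 1, a fit that leaves Control 8w with 1 sample. Acsbg1 had 160.1, 157 and 111 TPM in RUN MDZ 8w, 115, 171 and 89.98 TPM in MDZ 8w and 76.1, 87.3 and 97.1 TPM in Control 8w (0.52 ± 0.31 for MDZ 8w against Control 8w, limma adjusted p = 0.35). Acsl1 had 28.2, 22.97 and 30.1 TPM in RUN MDZ 8w, 11.6, 12.3 and 11.4 TPM in MDZ 8w and 0.0379, 27.6 and 17.6 TPM in Control 8w. It was the member with the largest change between RUN MDZ 8w and MDZ 8w, 1.13 ± 1.00, with a limma adjusted p of 0.83 and no overlap of those groups. The remaining members, Acsl3, Acsl5, Slc25a20, Crat, Etfdh, Eci2, Hsd17b4 and Acaa1a, had changes of −0.27 (Crat) to 0.71 (Acaa1a) in MDZ 8w against Control 8w, with limma adjusted p of 0.19 or more.

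RUN MDZ 8w against MDZ 8w compares midazolam mice with and without a wheel. No member passed, against 0.157% of 15264 genes (0.0524% higher and 0.105% lower), and 1 of 30 (3.33%, Acads) had an unadjusted limma p below 0.05, against 9.98% of all genes. The groups did not overlap in 5 members (16.7%), against 24.9% of all genes: Cpt1a, Cpt2 and Acsl1 were higher (10%, against 14.4% of genes) and Acads and Echs1 lower (6.67%, against 10.5%) in RUN MDZ 8w. The median change was 0.07 over the members and 0.05 over all genes. Among the 8 genes called higher were 4 of 13 endothelial markers (Flt1, Cldn5, Abcb1a and Cdh5) and 1 of 11 pericyte and smooth muscle markers (Acta2). Leaving out any 1 MDZ 8w replicate ended every call. Median changes were 1.99 over endothelial, 1.92 over pericyte and smooth muscle, 2.54 over oligodendrocyte and −0.90 over microglia markers. The part of these shifts in the results for the members was not tested.

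RUN MDZ 8w differs from Control 8w in both midazolam and the wheel, which cannot be told apart without control mice on a wheel. The comparison of these groups shares its libraries with the others at 8 weeks. It called 2 of 30 members higher (6.67%, Decr1 and Acot2), against 9.41% of genes, and none lower, against 1.9%; in either direction 11.3% of genes passed. The median change was 0.44 over the members and 0.51 over all genes, and under quantile normalization 0.37 over the members and −0.09 over all genes. That scaling called 278 genes higher and 128 lower, in place of 1437 and 290. An unadjusted limma p below 0.05 was reached by 10 members (33.3%), against 27.2% of genes. The groups did not overlap in 14 members (46.7%), against 32.5% of all genes: 12 were higher (40%, against 23% of genes) and 2 lower (6.67%, against 9.47%). With library quality weights limma called 0 of 15264 genes, and in a fit of those groups alone 0 of 15443.

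Control 8w replicate 1 and the mean of replicates 2 and 3 gave different members. For MDZ 8w, 8 members passed without replicate 1, with Acaa2, Acadvl, Acsl6, Decr1, Eci1, Etfb and Hadh higher (7 of 30, or 23.3%, against 15.1% of genes) and Cpt2 lower (3.33%, against 3.83%). Without the mean of replicates 2 and 3, 8 passed, with Acaa1a, Acot2, Acsl1, Cpt1a, Cpt2, Decr1 and Hadh higher (23.3%, against 23.8% of genes) and Crat lower (3.33%, against 8.5%). Decr1 and Hadh were the 2 members that passed in the same direction both times. For RUN MDZ 8w the members that passed both times were Decr1 and Acot2, among 7 higher and 1 lower in each fit; of all genes 19.7% were higher and 5.87% lower without replicate 1, and 27% and 9.58% without the mean. Each of these fits leaves Control 8w with 1 sample, whose spread is taken from the midazolam groups.

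**Figure D2:**
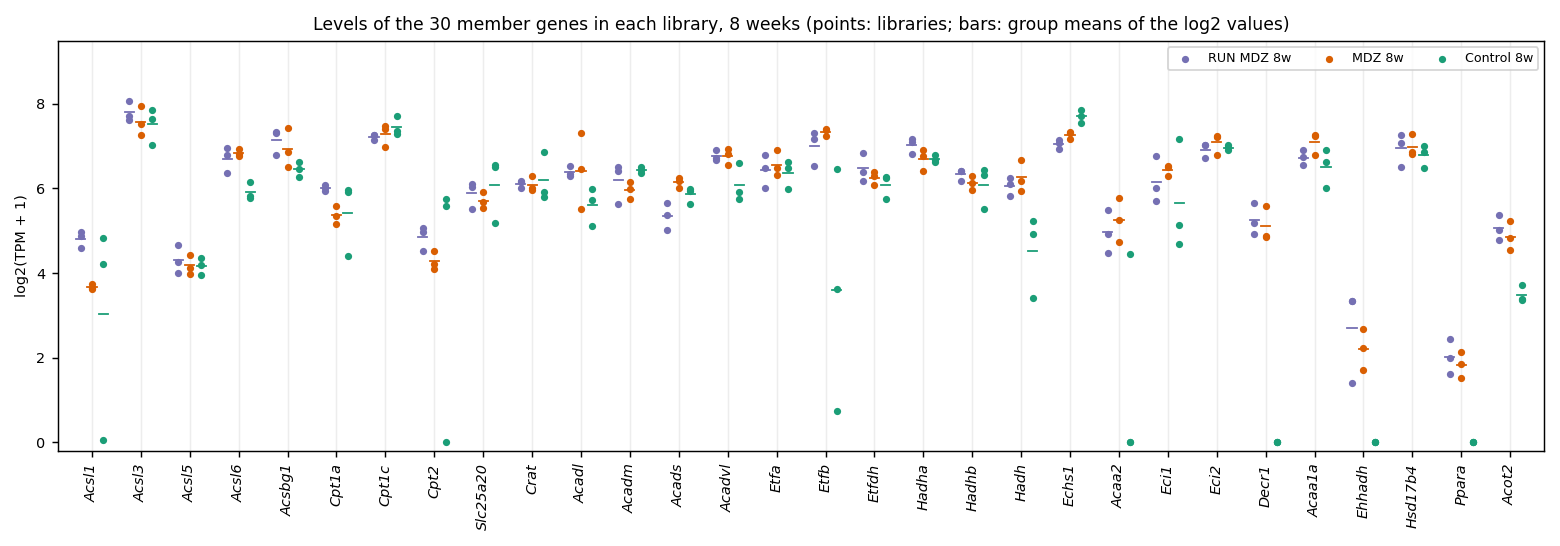
Levels of the 30 members at 8 weeks as log2(TPM + 1) on the y axis, ordered by role along the x axis, with RUN MDZ 8w, MDZ 8w and Control 8w from left to right. Points are libraries and bars, drawn where no library is at 0, are group means of the log2 values. Control 8w points lie at 0 for Decr1, Ehhadh and Ppara and are spread widely for Acsl1, Cpt2, Etfb and Acaa2.

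Ketone bodies are used through Bdh1, Oxct1 and Acat1. None of the 5 ketone body genes passed at P10, against 0.00774% of the 12914 genes tested. Oxct1, the transferase that lets cells use ketone bodies, was at 54.05, 54.7 and 52.1 FPKM in MDZ P10 and 54.1, 52.5 and 58.00 FPKM in Control P10.

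At 8 weeks Oxct1 had 237, 233 and 226 TPM in RUN MDZ 8w, 167, 162 and 156 TPM in MDZ 8w and 131, 127 and 127 TPM in Control 8w. The 3 groups did not overlap; for single pairs of groups, 24.9% to 36.3% of all genes had no overlap. RUN MDZ 8w was higher than Control 8w (0.84 ± 0.15, limma adjusted p = 0.013). That call was lost with library quality weights (0.46) and in a fit of those groups alone (0.12). Oxct1 did not pass for MDZ 8w against Control 8w or for RUN MDZ 8w against MDZ 8w. For RUN MDZ 8w against Control 8w 2 of the 5 genes were higher, against 9.41% of all genes. For MDZ 8w against Control 8w it was 1, Bdh2, against 4.68%. Bdh2, a cytosolic dehydrogenase named for its likeness to Bdh1, had 16.5, 5.83 and 16.03 TPM in RUN MDZ 8w and 12.4, 21.3 and 8.8 TPM in MDZ 8w and was listed at 0 in Control 8w (limma adjusted p = 0.014 for RUN MDZ 8w and 0.017 for MDZ 8w against Control 8w). The RUN MDZ 8w call for Bdh2 was lost in 3 of 19 alternatives (0.12 to 0.41) and the MDZ 8w call in 6 (0.0572 to 0.47), among them those without any 1 of the MDZ 8w replicates. Acat1 and Bdh1 did not pass; for MDZ 8w against Control 8w they had changes of −0.62 ± 0.24 and −0.12 ± 0.23 and limma adjusted p of 0.18 and 0.78.

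**Figure D3:**
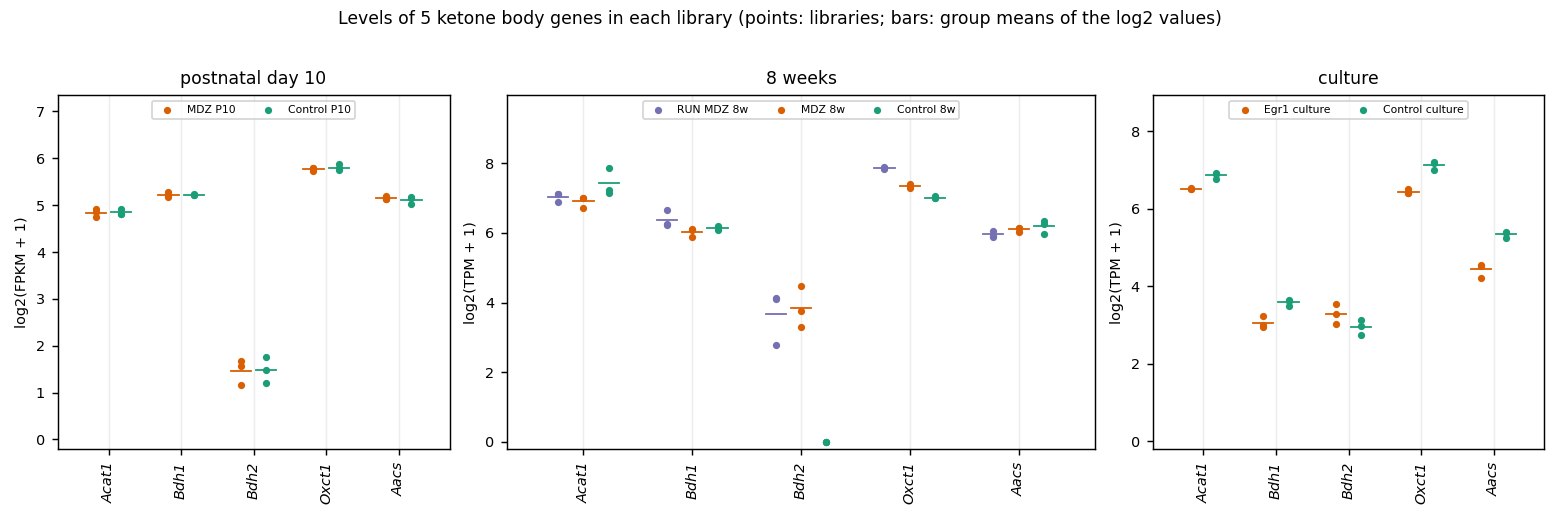
Levels of 5 ketone body genes, on the y axis as log2(FPKM + 1) at P10 (left) and log2(TPM + 1) at 8 weeks (middle) and in culture (right). Points are libraries, bars are group means of the log2 values where no library is at 0, and groups run left to right as in each legend. Oxct1 is highest in RUN MDZ 8w at 8 weeks, Bdh2 lies at 0 in Control 8w, and Oxct1, Bdh1, Acat1 and Aacs are lower in Egr1 culture than in Control culture.

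In culture, Egr1 itself had 1769, 1390.0 and 1291 TPM in Egr1 culture and 361, 285 and 344 TPM in Control culture. Of the 30 members, 29 were tested; Ehhadh was below the level filter, with 0.443, 0.256 and 0.369 TPM in Egr1 culture and 0.677, 0.956 and 0.867 TPM in Control culture. In Egr1 culture 6 of 29 members rose (20.7%), against 15.2% of 12402 genes, and 17 fell (58.6%), against 29% of genes; in either direction 44.2% of genes passed. The median change was −0.22 over the members and −0.10 over all genes. Median-of-ratios scaling moved the median of all genes to 0.01 and that of the members to −0.12. It called 8 members higher and 11 lower (27.6% and 37.9% of 29), against 2781 and 2708 genes (22.4% and 21.8%), in place of 1888 and 3598 genes. Without Control culture replicate 2, 6 members were higher and 11 lower (20.7% and 37.9%), against 12.6% and 25.6% of genes. In all 13 alternatives 15 of the 23 calls were kept, 5 higher (Acaa2, Cpt1a, Eci2, Etfa and Etfb) and 10 lower (Acads, Acadvl, Cpt2, Etfdh, Hsd17b4, Crat, Acsl1, Acsl5, Acsl6 and Acsbg1). At an unadjusted limma p below 0.05 the members were the same 23 (79.3%), against 51.9% of genes. The groups did not overlap in 26 members (89.7%), against 55.5% of all genes: 8 were higher (27.6%, against 18.4% of genes) and 18 lower (62.1%, against 37.1%).

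Of the 5 synthetases that activate fatty acids, 4 fell and none rose, where 29% of the 12402 genes tested fell and 15.2% rose. Acsbg1 had 228, 254 and 211 TPM in Egr1 culture and 429, 409 and 406 TPM in Control culture, the largest change of any member (−0.84 ± 0.07, limma adjusted p = 3.6e-05). Acsl5, a synthetase of mitochondria and endoplasmic reticulum, fell to 18.4, 19.4 and 16.5 TPM in Egr1 culture, against 28.8, 28.4 and 30.1 TPM in Control culture (−0.66 ± 0.08, limma adjusted p = 3.4e-04). Acsl6 was low, at 2.06, 2.16 and 1.4 TPM in Egr1 culture and 3.61, 3.62 and 3.11 TPM in Control culture (−0.64 ± 0.15, limma adjusted p = 0.0081). Acsl1 was at 5.93, 6.25 and 5.27 TPM in Egr1 culture and 8.93, 8.91 and 8.81 TPM in Control culture (−0.54 ± 0.10, limma adjusted p = 0.0027). In these 4 genes every Egr1 culture library lay below every Control culture library. Acsl3, which serves lipid droplets, had 75.4, 72.9 and 70.9 TPM in Egr1 culture and 63.4, 62.7 and 70.8 TPM in Control culture and did not pass (limma adjusted p = 0.098), but was higher after median-of-ratios scaling (0.0046) or quantile normalization (0.02), with library quality weights (0.0413) and without Control culture replicate 3 (0.0494).

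The genes listed with the carnitine shuttle split, with 1 of 5 higher and 3 lower, against 15.2% and 29% of all genes. Cpt1a rose to 141, 130.5 and 121 TPM in Egr1 culture, against 105, 98.7 and 110.0 TPM in Control culture (0.32 ± 0.07, limma adjusted p = 0.0074). Cpt2 fell to 23.1, 22.2 and 20.7 TPM in Egr1 culture, against 31.01, 27.2 and 29.3 TPM in Control culture (−0.39 ± 0.08, limma adjusted p = 0.0049). Cpt1c fell to 44.1, 44.3 and 39.9 TPM in Egr1 culture, against 57.5, 47.97 and 54.7 TPM in Control culture (−0.31 ± 0.08, limma adjusted p = 0.016), a call lost without Control culture replicate 1 (0.058) or replicate 3 (0.0546). Crat, the acetyltransferase that buffers short acyl groups, fell to 31.1, 32.7 and 27.3 TPM in Egr1 culture, against 48.9, 43.6 and 49.6 TPM in Control culture (−0.63 ± 0.09, limma adjusted p = 6.1e-04). The carnitine carrier Slc25a20 had 67.1, 72.2 and 65.4 TPM in Egr1 culture and 60.2, 58.5 and 65.2 TPM in Control culture and did not pass (limma adjusted p = 0.11), but was higher after median-of-ratios scaling (0.0049) or quantile normalization (0.018) and with library quality weights (0.022).

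Of the 4 acyl-CoA dehydrogenases, 3 fell and 1 rose, where 29% of all genes tested fell and 15.2% rose. Acadvl fell to 139.7, 140.4 and 141 TPM in Egr1 culture, against 202, 190.3 and 197 TPM in Control culture, with replicates tightly grouped (−0.48 ± 0.05, limma adjusted p = 1.4e-04). Acads fell to 74.7, 73.7 and 63.3 TPM in Egr1 culture, against 90.8, 84.3 and 85.2 TPM in Control culture (−0.30 ± 0.08, limma adjusted p = 0.014). Acadl, the second most abundant member in Egr1 culture and the first in Control culture, was at 435, 444 and 401 TPM in Egr1 culture and 474, 521 and 511 TPM in Control culture (−0.24 ± 0.06, limma adjusted p = 0.015). That call was lost under median-of-ratios scaling (0.13) and without Control culture replicate 2 (0.0582) or 3 (0.0514). Acadm rose to 117, 109.8 and 105 TPM in Egr1 culture, against 91.6, 98.7 and 96.4 TPM in Control culture (0.21 ± 0.06, limma adjusted p = 0.028). The call was lost in 5 of 13 alternatives, among them those without Egr1 culture replicate 1 (limma adjusted p = 0.10) or 2 (0.069), or without Control culture replicate 1 (0.084) or 3 (0.063).

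Electron transfer also split by subunit and acceptor, with 2 of 3 genes higher and 1 lower, against 15.2% and 29% of all genes. Both flavoprotein subunits rose, Etfa to 170.0, 170.1 and 185 TPM in Egr1 culture, against 142, 146 and 151 TPM in Control culture (0.26 ± 0.06, limma adjusted p = 0.0076), and Etfb to 505, 531 and 537 TPM in Egr1 culture, against 439, 409.6 and 405 TPM in Control culture (0.33 ± 0.06, limma adjusted p = 0.0016). Etfdh, the ubiquinone oxidoreductase that takes their electrons, fell to 86.3, 85.4 and 86.2 TPM in Egr1 culture, against 102, 105 and 107 TPM in Control culture (−0.28 ± 0.05, limma adjusted p = 0.0034).

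Later steps of the round moved in both directions. Acaa2 rose to 247, 233 and 236 TPM in Egr1 culture, against 167, 154 and 150.1 TPM in Control culture, the largest rise of any member (0.60 ± 0.06, limma adjusted p = 8.8e-05). Hadha and Hadhb, which share the promoter region printed above, both fell by small amounts. Hadha had 201, 197 and 178 TPM in Egr1 culture and 212, 215 and 219.5 TPM in Control culture (−0.17 ± 0.06, limma adjusted p = 0.0493), and Hadhb 90.7, 98.4 and 99.03 TPM in Egr1 culture and 108, 118 and 111 TPM in Control culture (−0.22 ± 0.06, limma adjusted p = 0.02). The Hadha call was lost in 9 of 13 alternatives (limma adjusted p = 0.0523 to 0.35), among them 5 of the 6 that left out 1 library, all but that without Egr1 culture replicate 1. The Hadhb call was lost in 4 (0.062 to 0.27), among them those without Egr1 culture replicate 1 or Control culture replicate 2; median-of-ratios scaling ended both. Hadh, with 164, 168 and 163 TPM in Egr1 culture and 164, 163 and 173 TPM in Control culture, and Echs1, with 121, 126 and 126 TPM in Egr1 culture and 137, 137 and 131 TPM in Control culture, did not pass (limma adjusted p = 0.86 and 0.11).

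The auxiliary isomerases diverged. Eci2, which moves double bonds in mitochondria and peroxisomes, rose to 278, 282 and 276 TPM in Egr1 culture, against 182, 193 and 191 TPM in Control culture (0.56 ± 0.05, limma adjusted p = 5.5e-05). Its mitochondrial counterpart Eci1 fell to 81.7, 91.5 and 97.2 TPM in Egr1 culture, against 115, 115 and 100.5 TPM in Control culture (−0.29 ± 0.08, limma adjusted p = 0.022), a call lost under both other scalings and without Egr1 culture replicate 1 (0.072) or Control culture replicate 1 (0.070) or 2 (0.068). Decr1 was at 24.9, 27.03 and 27.6 TPM in Egr1 culture and 30.9, 30.6 and 30.4 TPM in Control culture (−0.20 ± 0.07, limma adjusted p = 0.0477), a call lost in 9 of 13 alternatives (limma adjusted p = 0.0516 to 0.35), including every fit that left out 1 library other than Egr1 culture replicate 3. In peroxisomes, Hsd17b4, the D-bifunctional enzyme, fell to 160.5, 158 and 149.6 TPM in Egr1 culture, against 184, 181 and 196 TPM in Control culture (−0.26 ± 0.06, limma adjusted p = 0.0065). The thiolase Acaa1a, whose reads may be shared with its near copy Acaa1b, did not pass (−0.07 ± 0.08, limma adjusted p = 0.52). Acot2 was at 46.7, 45.9 and 41.8 TPM in Egr1 culture and 51.8, 53.4 and 54.1 TPM in Control culture (−0.24 ± 0.07, limma adjusted p = 0.019), a call lost in 4 of 13 alternatives, among them median-of-ratios scaling (0.066) and the fits without Control culture replicate 2 (0.0573) or 3 (0.061). Ppara, the member with an Egr motif, had 1.26, 1.3 and 0.691 TPM in Egr1 culture and 1.41, 1.06 and 1.61 TPM in Control culture, with overlapping groups (−0.19 ± 0.18, limma adjusted p = 0.43).

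**Figure D4:**
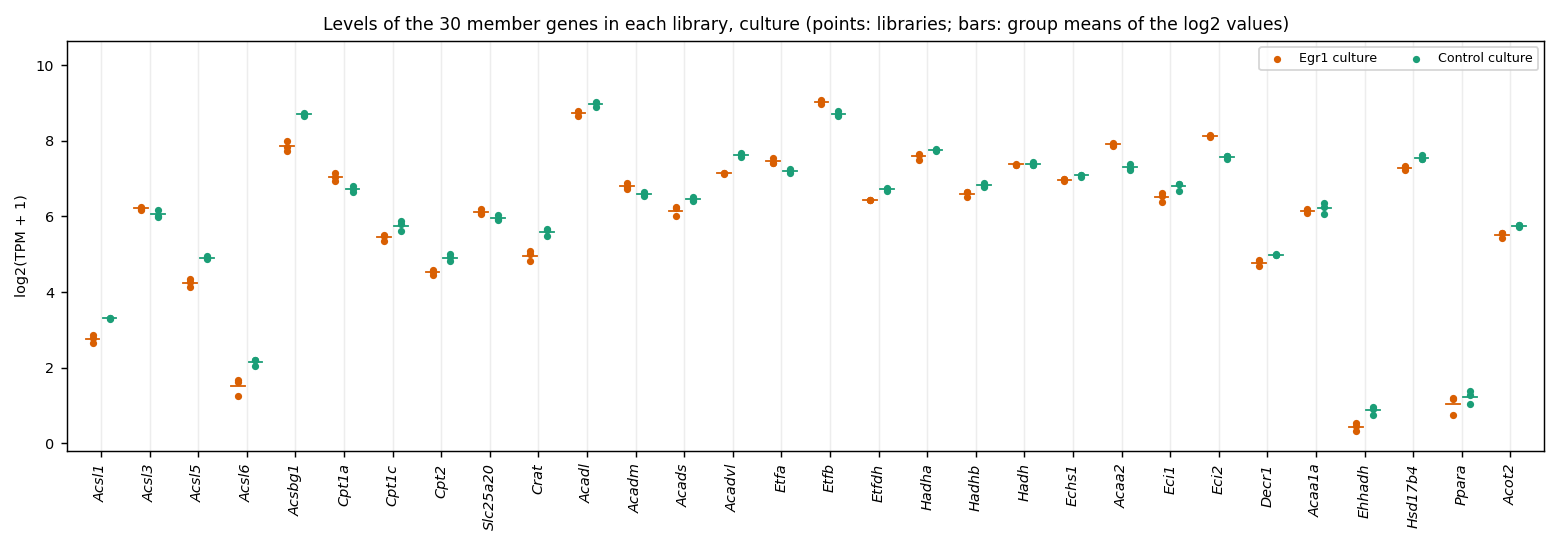
Levels of the 30 members in culture as log2(TPM + 1) on the y axis, ordered by role along the x axis, with Egr1 culture left of Control culture. Points are libraries and bars are group means of the log2 values. Egr1 culture lies below Control culture for Acsl1, Acsl5, Acsl6 and Acsbg1 and above it for Acaa2, Eci2, Etfa, Etfb and Cpt1a.

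Of the 5 ketone body genes, 4 fell and none rose in Egr1 culture, where 29% of the 12402 genes tested fell and 15.2% rose. The genes of ketone body use fell: Oxct1 to 84.1, 89.5 and 83.8 TPM in Egr1 culture, against 128, 145 and 148 TPM in Control culture (−0.70 ± 0.07, limma adjusted p = 9.1e-05), and Bdh1 to 6.999, 8.41 and 6.72 TPM in Egr1 culture, against 11.5, 11.3 and 10.2 TPM in Control culture (−0.52 ± 0.11, limma adjusted p = 0.0051). Acat1 fell to 90.7, 89.6 and 91.2 TPM in Egr1 culture, against 108, 119 and 119 TPM in Control culture (−0.35 ± 0.06, limma adjusted p = 0.0019). Aacs, which channels acetoacetate into lipid synthesis, fell to 22.1, 22.4 and 17.7 TPM in Egr1 culture, against 40.97, 37.2 and 40.5 TPM in Control culture (−0.91 ± 0.10, limma adjusted p = 0.00016). Bdh2 did not pass (0.35 ± 0.15, limma adjusted p = 0.098).

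Other fatty acid oxidation genes were read from 2 further lists. Of 19 tested mitochondrial and branched-chain genes outside the members, 2 rose and 8 fell in Egr1 culture, with a median change of −0.16, against 15.2% of all genes that rose, 29% that fell and a median of −0.10. Acss1, which activates acetate, rose to 15.7, 18.2 and 14.03 TPM in Egr1 culture, against 7.39, 7.16 and 8.16 TPM in Control culture (0.98 ± 0.11), while Acadsb, the short branched-chain dehydrogenase, fell to 16.4, 14.6 and 16.2 TPM in Egr1 culture, against 29.97, 30.5 and 29.9 TPM in Control culture (−0.90 ± 0.08). Of 12 peroxisomal genes tested, none rose and 4 fell in Egr1 culture (median −0.14), to be read against the same shares. At P10 none of the 19 and none of the 12 passed, against 0.00774% of all genes. At 8 weeks 1 of the 19 passed against Control 8w, Acad10. In these comparisons 4.68% (MDZ 8w) and 9.41% (RUN MDZ 8w) of all genes were higher. Acad10 had 3.17, 5.97 and 6.13 TPM in RUN MDZ 8w and 4.91, 6.36 and 6.37 TPM in MDZ 8w. It was listed at 0 in all Control 8w libraries, with the limit stated for Decr1. Of 19 alternatives the Acad10 call was lost in 6 for MDZ 8w (limma adjusted p = 0.09 to 0.6) and in 8 for RUN MDZ 8w (0.0543 to 0.83). Those without any 1 of the MDZ 8w replicates ended both calls, and that without RUN MDZ 8w replicate 3 the RUN MDZ 8w call. At 8 weeks none of the 12 passed. None of either list passed for RUN MDZ 8w against MDZ 8w, where 0.157% of all genes did.

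Cell type markers moved in culture as well, where 15.2% of all genes tested were higher and 29% lower. The 14 astrocyte markers summed to 638.3 to 741.7 TPM in Egr1 culture and 966.9 to 1039 in Control culture (of 12 tested, 3 higher and 4 lower). The 8 oligodendrocyte precursor markers summed to 803.7 to 931.7 TPM in Egr1 culture and 1588 to 1677 in Control culture (of 5 tested, 1 higher and 4 lower). Of the radial glia-like stem cell markers 9 were tested, with 4 higher and 3 lower. The 10 oligodendrocyte markers summed to 202.6 to 209 TPM in Egr1 culture and 97.28 to 107.2 in Control culture, with 5 of 5 tested higher. The 14 neuroblast and granule neuron markers summed to 260.5 to 317.4 TPM in Egr1 culture and 106.6 to 124.6 in Control culture (3 of 6 tested higher, none lower), and the 11 pericyte and smooth muscle markers to 39.82 to 55.87 TPM in Egr1 culture and 23.21 to 30.27 in Control culture (of 5 tested, 3 higher and 1 lower). The part of these shifts in the results for the members was not tested.

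**Figure D5:**
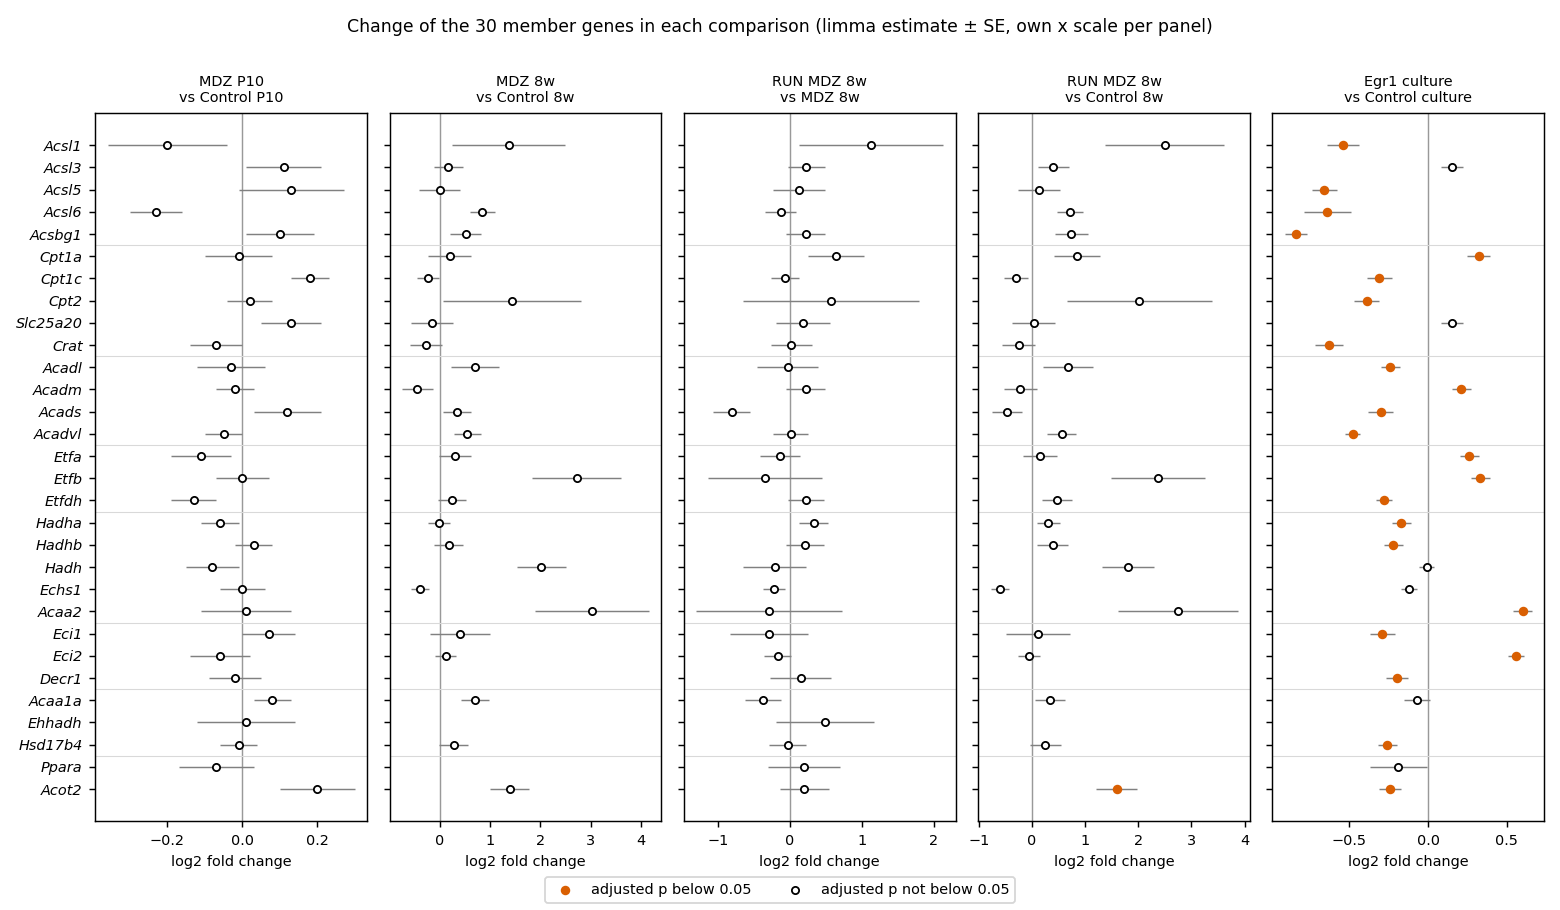
Log2 change (x axis, first-named over second-named group, with a scale of its own in each panel) of the 30 members (rows, by role) in the 5 comparisons, as the limma estimate ± SE. Filled points have an adjusted p below 0.05; genes listed at 0 in all Control 8w libraries are left out where Control 8w is compared, as is Ehhadh in culture. The single filled point at 8 weeks that can be drawn is Acot2 in RUN MDZ 8w against Control 8w, while 23 are filled in culture.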

How the data were processed

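RNA was measured in 21 libraries: 6 at P10, 9 at 8 weeks and 6 of cultured cells. Per the submitters' processing notes, reads were handled with TopHat, Bowtie2 and DESeq2 on build mm10; the sources used here give no roles or versions for them and no strand setting of the counting. The files deposited by the authors hold 1 value per gene and library. Their unit is not named in the labels and was read from the values: P10 values are FPKM as deposited, with library totals of 241508 to 252344, and those at 8 weeks and in culture are TPM as deposited, with the near-constant library totals that this unit implies. TPM keeps no depth, so count models were not used and read depth is unknown. Per the labels' protocols, messenger RNA was isolated with Dynabeads and made into strand-marking libraries; each P10 library came from 50000 sorted cells, and each 8-week library from about 30000.

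Values were tested as log2(value + 1) with limma 3.58.1 with an intensity trend (R 4.3.3) over genes with a mean of at least 1 within each of 3 fits: P10, the 3 groups at 8 weeks together, and culture. Adjustment was by Benjamini-Hochberg over all genes tested. Control 8w replicates 2 and 3 were averaged. The fits were tested on simulated data. Python 3.11.15 with pandas 2.3.3, numpy 2.4.6 and matplotlib 3.10.9 was used for summaries and figures. The 10 chromatin libraries of the series were not analysed here.

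The members and lists were chosen with earlier results of these data known. Full values are given for members past the threshold in any comparison, for the 3 with the largest change in each, and for Cpt1a, Cpt1c, Cpt2, Hadha, Hadhb, Acadl, Acadm, Acadvl, Ppara and Acsbg1; of other lists, counts and up to 4 genes past the threshold are given, and for ketone bodies also Acat1, Bdh1 and Oxct1; a few genes of these lists are not reported here. Alternatives were pseudocounts of 0.1 and 5, no filter on low values, median-of-ratios scaling, quantile normalization, library quality weights, a replicate block, a fit of only the groups compared, the Control 8w libraries kept apart, and leaving out each library. At 8 weeks the mean of Control 8w replicates 2 and 3 was also left out.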

Additional observations from a re-analysis of the deposited data

Results flagged for a closer look

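Acsl6, the brain synthetase, had changes of opposite sign at the 2 ages. At 8 weeks its log2 change in MDZ 8w against Control 8w was 0.85 ± 0.24 and every MDZ 8w library lay above every Control 8w library. At P10 the change in MDZ P10 against Control P10 was −0.23 ± 0.07 and every MDZ P10 library lay below every Control P10 library. Neither passed limma's adjusted threshold (0.092 at 8 weeks and 0.28 at P10). The 8-week change passed in 3 of 19 alternatives. It passed with Control 8w replicates 2 and 3 kept apart (limma adjusted p = 0.023), and with those kept apart and a replicate block (0.033). Both fits count libraries that may be repeat deposits as separate samples. It also passed without Control 8w replicate 1, a fit that leaves Control 8w with 1 sample. The difference between the ages was not tested, since the values are in different units and come from separate fits.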

How the results depend on the processing

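In Egr1 culture, no alternative moved the count of members called beyond 1.5 times, and leaving out 1 library gave 17 to 22; of these the 17 lower members became 11 under median-of-ratios scaling and without Control culture replicate 2. The replicate block ended the calls of Acadm (limma adjusted p = 0.071), Hadha (0.10), Decr1 (0.13) and Acot2 (0.0585). At 8 weeks the replicate block was fitted with Control 8w replicates 2 and 3 kept apart, so it changes both choices. At P10, 0 members were called under every alternative tried, while the 1 gene called of all genes became 2 with a pseudocount of 5, 0 with median-of-ratios scaling, 4 with quantile normalization (3 higher, 1 lower), 5 with library quality weights and 0 with the replicate block, and leaving out 1 library gave 0 to 101 genes, the highest without Control P10 replicate 2. For MDZ 8w against Control 8w, the 1 member called became 4 with a pseudocount of 0.1, 0 with library quality weights and 5 with Control 8w replicates 2 and 3 kept apart, which with the replicate block gave 2; leaving out 1 library gave 1 to 8, and Cpt2 was −1.40 without Control 8w replicate 1 and 4.28 without the mean of replicates 2 and 3. The 783 genes became 1410 with a pseudocount of 0.1, 461 with 5, 152 with quantile normalization and 19 with library quality weights. They became 1787 with those replicates kept apart and 1227 with the replicate block. Leaving out 1 library, or the mean of Control 8w replicates 2 and 3, gave 207 to 4995. The highest count was without that mean, a fit that leaves Control 8w with 1 sample. For RUN MDZ 8w against MDZ 8w, library quality weights gave 1 member in place of 0. The 24 genes became 432 with library quality weights, 122 with replicates kept apart, 360 with only those groups in the fit and 14 with the replicate block. Leaving out 1 library, or the mean of Control 8w replicates 2 and 3, gave 0 to 345, the highest without that mean. For RUN MDZ 8w against Control 8w, the 2 members became 5 with a pseudocount of 0.1, 1 with quantile normalization, 0 with library quality weights or with only those groups, 7 with replicates kept apart and 6 with the replicate block; leaving out 1 library gave 1 to 8. Its 1727 genes became 406 with quantile normalization and 0 with library quality weights or with only those groups. They became 2904 with replicates kept apart and 2595 with the replicate block. Leaving out 1 library, or the mean of Control 8w replicates 2 and 3, gave 910 to 5649. The highest was again without that mean, with 1 sample left in Control 8w. The cause of these shifts was not tested. The main fits used no pairing by replicate number. At P10 the correlations of same-numbered deviations were −0.0771, 0.12 and 0.106, and those of different-numbered ones −0.216 to 0.165. For MDZ 8w against Control 8w the same-numbered values were 0.0575, 0.0477 and 0.00807, against −0.0574 to 0.039. For RUN MDZ 8w against MDZ 8w they were 0.133, 0.0743 and −0.0155, against −0.109 to 0.0234. Whether replicate numbers share a factor at 8 weeks was not settled. Of single genes named, counting all alternatives, values stayed on their side of the threshold in 650 of 650 cases at P10, 863 of 950 for MDZ 8w against Control 8w, 946 of 950 for RUN MDZ 8w against MDZ 8w, 839 of 950 for RUN MDZ 8w against Control 8w and 575 of 624 in culture. Depth is unknown, so a gene listed at 0 may have been present below the reach of its library. With n = 2 in Control 8w, its spread is taken largely from the other groups, and Acot2 and Acaa1a may share reads with close copies.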

Other observations

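Of 15 genes of fatty acid uptake and storage tested at 8 weeks, 3 were higher in MDZ 8w than in Control 8w and 4 in RUN MDZ 8w than in Control 8w, and none was lower. Of all genes 4.68% were higher in MDZ 8w and 9.41% in RUN MDZ 8w. Fabp7, the brain fatty acid binding protein of radial glia, which is also in the list of stem cell markers, had 1089, 775 and 768 TPM in RUN MDZ 8w, 1452, 1388 and 960.2 TPM in MDZ 8w and 458, 522 and 415 TPM in Control 8w (1.43 ± 0.23 for MDZ 8w against Control 8w, limma adjusted p = 0.014). Dgat1, which makes triglyceride, had 55.4, 76.3 and 71.3 TPM in RUN MDZ 8w, 71.3, 58.7 and 75.97 TPM in MDZ 8w and 16.3, 35.3 and 28.6 TPM in Control 8w (limma adjusted p = 0.0418 for MDZ 8w against Control 8w). Of 13 synthesis genes, Elovl5, an elongase, was higher in MDZ 8w than in Control 8w (0.77 ± 0.18, limma adjusted p = 0.0497), and Elovl5 and Scd2 were higher in RUN MDZ 8w than in Control 8w. Of 14 PPAR and PGC-1 genes, Ppargc1a, the coactivator of mitochondrial genes, and Pdk4, the kinase that shuts off pyruvate oxidation, were listed at 0 in all Control 8w libraries. Ppargc1a had 20.3, 5.81 and 22.3 TPM in RUN MDZ 8w and 9.65, 8.34 and 6.34 TPM in MDZ 8w, and Pdk4 4.67, 15.3 and 7.71 TPM in RUN MDZ 8w and 5.74, 7.85 and 5.88 TPM in MDZ 8w. Both passed against Control 8w, with the limit stated for Decr1. Txnip was lower in RUN MDZ 8w than in Control 8w (−1.19 ± 0.29, limma adjusted p = 0.0407). Each of these calls at 8 weeks was lost in some of the 19 alternatives, the library quality weights among them: for MDZ 8w against Control 8w Fabp7 in 3, Dgat1 in 12, Elovl5 in 13, Ppargc1a in 8 and Pdk4 in 8, including for all 5 those without MDZ 8w replicate 1 or 2 (limma adjusted p = 0.067 to 0.19). For RUN MDZ 8w against Control 8w Fabp7 was lost in 13, Dgat1 in 8, Scd2 in 12, Txnip in 9, Pdk4 in 4, Ppargc1a in 3 and Elovl5 in 2. None of these lists had a call at P10 or between RUN MDZ 8w and MDZ 8w.

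In Egr1 culture, 1 of 14 uptake and storage genes rose and 7 fell, and of 12 synthesis genes 2 rose and 8 fell, while of all genes 15.2% rose and 29% fell. Thrsp, a lipogenic gene, fell to 18.9, 20.7 and 17.4 TPM in Egr1 culture, against 43.3, 43.4 and 41.1 TPM in Control culture (−1.13 ± 0.08). Acly, which makes cytosolic acetyl-CoA, fell to 122, 124 and 103 TPM in Egr1 culture, against 179.5, 167 and 186 TPM in Control culture (−0.60 ± 0.08), while Scd1, a desaturase, rose to 353, 308 and 278 TPM in Egr1 culture, against 185, 174 and 200.3 TPM in Control culture (0.74 ± 0.09). Of 12 PPAR and PGC-1 genes 5 rose and 4 fell. Angptl4, a PPAR target that blocks lipoprotein lipase, rose to 22.7, 21.2 and 20.4 TPM in Egr1 culture, against 5.45, 3.01 and 3.16 TPM in Control culture (2.24 ± 0.17), and Ppard, the receptor PPAR delta, fell to 11.8, 11.9 and 9.55 TPM in Egr1 culture, against 21.6, 18.8 and 21.8 TPM in Control culture (−0.85 ± 0.11). The 5 genes named passed limma's adjusted threshold and kept that call in all 13 alternatives.

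Other marker lists differed between groups at 8 weeks or varied between single libraries. Ependymal and choroid plexus markers summed to 394.3 to 4275 TPM in RUN MDZ 8w, 64.62 to 115.5 in MDZ 8w and 96.06 to 4838 in Control 8w. Pericyte and smooth muscle markers summed to 2456 to 3618 TPM in RUN MDZ 8w, 888.4 to 1491 in MDZ 8w and 2463 to 3889 in Control 8w. Every MDZ 8w library thus lay below every library of the other groups in that sum. Microglia markers summed to 92.92 to 220.2 TPM in RUN MDZ 8w, 119.6 to 302.9 in MDZ 8w and 48.71 to 264.2 in Control 8w. Oligodendrocyte precursor markers summed to 2556 to 7375 TPM in RUN MDZ 8w, 1415 to 5410 in MDZ 8w and 990.6 to 3926 in Control 8w. No marker list had a call at P10.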
